A study of Mus musculus with 8 samples.

Results

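The IL-4 response of wild-type bone marrow-derived macrophages was read from 2 of the 8 libraries of the series, the WT library given IL-4 and the WT library left untreated. Both came from C57BL/6 mice of wild-type genotype. Bone marrow was cultured for 5 days in medium with 10% M-CSF, the growth factor that turns marrow precursors into macrophages, and the IL-4 library is from cells then exposed to that cytokine (10 ng/mL) over 6 hours. The same pair of libraries from Slc6a8-/y mice (KO, which lack the X-linked creatine transporter) served for values side by side, and the peritoneal macrophages of the series, untreated or given IFNg, were not used here. Each group is 1 library, and the labels do not say how many animals stand behind it or whether the libraries share one. A comparison of 1 library with 1 library has no test, so every difference below is a size, and the 95% intervals given with some ratios cover counting error only.

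IL-4 is the cytokine of alternative macrophage activation. It binds a receptor made of IL-4R alpha and the common gamma chain, the attached Janus kinases phosphorylate STAT6, and STAT6 dimers enter the nucleus and bind DNA at paired TTC and GAA elements. In mouse macrophages the best known targets are arginase 1, the mannose receptor, resistin-like alpha and the chitinase-like proteins, and the work of the pathway is tied to tissue repair, parasite defence and the fusion of macrophages.

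The tables gave 20553654 expected counts in the WT IL-4 library and 21148299 in the WT untreated library. All 8 macrophage markers examined, from Csf1r and Adgre1 to Lyz2, were above 1 FPKM in both libraries, and their sum was 11609.6 FPKM with IL-4 and 14353 FPKM untreated. Most of that difference was Lyz2, at 7782 FPKM with IL-4, against 10496 FPKM untreated, whereas Csf1r, at 1188 FPKM with IL-4, against 1019 FPKM untreated, and Adgre1, at 478 FPKM with IL-4, against 399 FPKM untreated, were higher with IL-4. Cd68 was slightly higher, at 1751 FPKM with IL-4, against 1732.5 FPKM untreated. Cd14, at 186 FPKM with IL-4, against 427 FPKM untreated, and Fcgr1, at 39.1 FPKM with IL-4, against 72.4 FPKM untreated, were lower. Mertk, at 20.6 FPKM with IL-4, against 30.4 FPKM untreated, and Itgam, at 165 FPKM with IL-4, against 176 FPKM untreated, were lower too. Markers of B cells (0 of 5 above 1 FPKM), T and NK cells (0 of 6), dendritic cells (0 of 6) and mast cells, basophils and eosinophils (0 of 6) were near 0 in both. Neutrophil markers summed to 4.31 FPKM with IL-4 and 3.97 FPKM untreated. Fibroblast markers were present at similar sums, 354 FPKM with IL-4 and 376 FPKM untreated, led by Col1a1 at 199 FPKM with IL-4 and 209 FPKM untreated. Pf4, a platelet factor that macrophages also express, made up nearly all of the erythroid and megakaryocyte sum of 21.9 FPKM with IL-4 and 22.6 FPKM untreated. In bulk RNA, fewer cells of a type and less RNA per cell cannot be told apart.

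Of 16720 genes listed in either WT library, 8226 had at least 5 FPKM in either. For these the ratio of FPKM + 1, IL-4 over untreated, was taken on a log2 scale, and every fold limit below is on that scale. The median ratio was -0.02, and its 5th and 95th percentiles were -0.39 and 0.44, so most genes stood at nearly the same level in both libraries. At least 2-fold higher with IL-4 were 104 genes (1.26% of those compared), of which 100 code for proteins, and at least 2-fold lower were 31 (0.377%), of which 26 code for proteins. These shares over all compared genes are the background for every list count below. Past 4-fold there were 27 higher genes and 2 lower ones, and neither of the lower ones, the pseudogene Rpl14-ps1 and the small RNA gene Mir6936, codes for a protein. Large differences in protein-coding genes thus lay on the higher side. At the edge of the 2-fold limit, Myc (1.01), St7 (1.01) and Igf1 (1.01) stood just inside on the higher side, and Phldb1 (0.996), Sh2b2 (0.995) and Olfm1 (0.993) just outside. On the lower side, Cd93 (-1.01), Ifit1 (-1.01) and Pcp4l1 (-1.06) stood just inside, and Slc25a37 (-0.99), Calcrl (-0.97) and Arrdc3 (-0.97) just outside. Genes on either side of the limit differ by a few hundredths of the ratio.

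**Figure D1:**
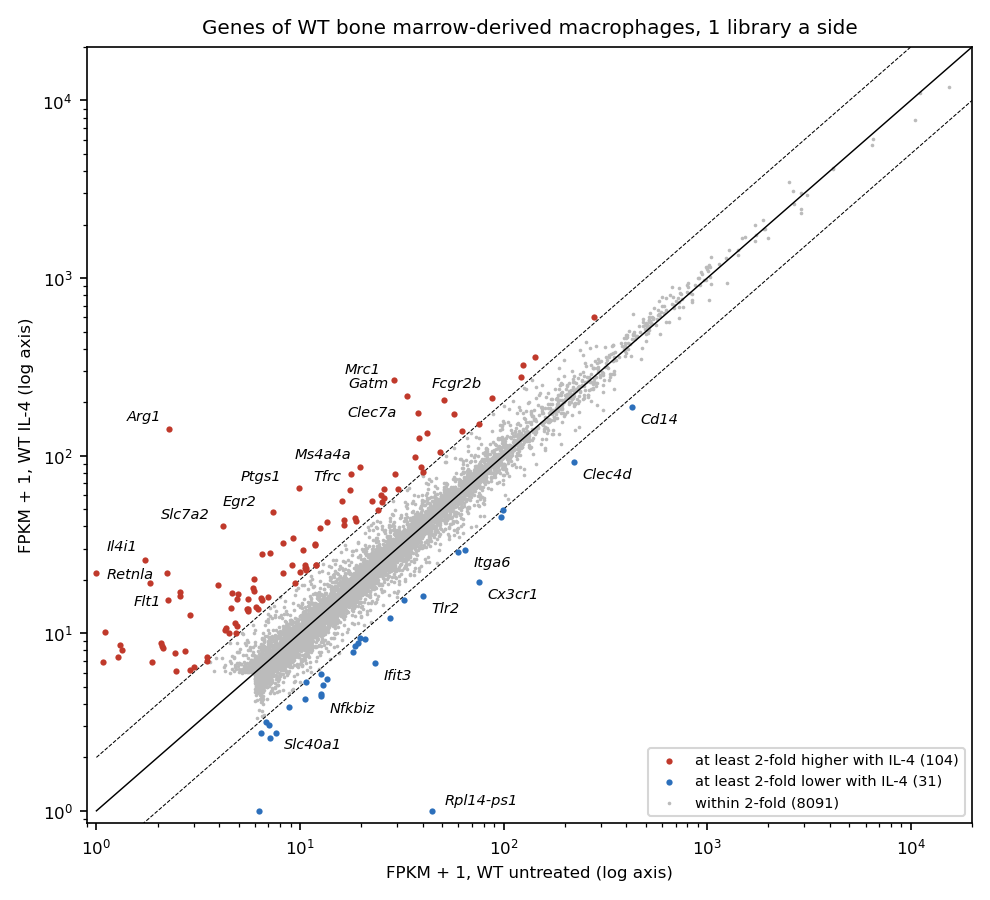
FPKM + 1 of each compared gene in the WT IL-4 library (vertical, log axis) against the WT untreated library (horizontal, log axis), with the line of equality and dashed lines at 2-fold. The 104 genes at least 2-fold higher (red) reach farther from the line than the 31 lower ones (blue), Arg1 farthest among protein-coding genes.

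STAT6 is known to bind TTC and GAA elements with a spacer of the length in TTCNNNNGAA, a motif that reads the same on both strands. In RefSeq promoter windows of GRCm38.p6, cut to the 250 bases upstream of each annotated start, this motif was present for 10 of the 76 higher genes that had a window (13.16%), 1 of 16 lower genes (6.25%), 350 of 6581 genes within 2-fold (5.318%) and 1826 of 27025 genes of the whole table (6.757%). The shorter spacing TTCNNNGAA, also the same on both strands and searched on its own, so that a window can hold both, was present for 4 of 76 higher genes (5.263%), 2 of 16 lower genes (12.5%), 441 of 6581 genes within 2-fold (6.701%) and 2197 of 27025 genes of the whole table (8.13%). The 10 higher genes were Retnla, Clec7a, Tmem26, Plekhf1, Tfec, Itgax, Ralgds, Tbxas1, Dhrs3 and St7, and the lower gene was Ifit2. A match in these letters is a description and not a site shown to be bound. Windows of 4 genes are printed because their transcripts are described below and they show where the motif lies, which is in capitals.
Retnla, chr16:48842359-48842608, + strand, motif starting 145 bases upstream of the start: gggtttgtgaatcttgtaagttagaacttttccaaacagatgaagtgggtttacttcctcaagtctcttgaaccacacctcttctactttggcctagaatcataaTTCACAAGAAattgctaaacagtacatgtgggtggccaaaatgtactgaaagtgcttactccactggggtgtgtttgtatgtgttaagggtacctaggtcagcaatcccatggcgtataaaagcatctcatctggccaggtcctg
Clec7a, chr6:129472780-129473029, - strand, motif starting 131 bases upstream of the more downstream annotated start: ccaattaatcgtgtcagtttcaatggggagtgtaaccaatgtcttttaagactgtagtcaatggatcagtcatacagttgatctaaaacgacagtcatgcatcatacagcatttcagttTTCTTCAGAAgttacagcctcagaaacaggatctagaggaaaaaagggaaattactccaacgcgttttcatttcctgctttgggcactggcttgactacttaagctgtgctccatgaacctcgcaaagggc
Itgax, chr7:128129300-128129549, + strand, motif starting 127 bases upstream: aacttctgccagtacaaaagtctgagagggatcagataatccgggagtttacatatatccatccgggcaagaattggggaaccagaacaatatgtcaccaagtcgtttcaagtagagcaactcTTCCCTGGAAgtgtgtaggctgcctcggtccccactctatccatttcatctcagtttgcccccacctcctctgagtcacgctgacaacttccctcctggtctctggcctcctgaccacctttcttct
Tmem26, chr10:68723496-68723745, + strand, motifs starting 227 and 41 bases upstream: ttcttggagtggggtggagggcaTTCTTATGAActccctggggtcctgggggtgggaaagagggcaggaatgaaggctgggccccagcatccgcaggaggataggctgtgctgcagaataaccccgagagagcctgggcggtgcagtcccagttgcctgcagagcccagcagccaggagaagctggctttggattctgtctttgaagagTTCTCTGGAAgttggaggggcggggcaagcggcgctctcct

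Among 32 classical markers of the IL-4 state, 18 were compared and 14 were at least 2-fold higher, with a median log2 ratio of 2.62 against -0.02 for all genes; the markers were listed for being known IL-4 genes, and results of these data were known when the list was made. Arg1 (chr10:24915207-24927470), which hydrolyses arginine, had 4246 expected counts with IL-4 and 40 untreated. Its log2 ratio of counts scaled to the library totals was 6.77, with a counting interval of 6.32 to 7.26. Retnla, the secreted resistin-like alpha, had 246 expected counts with IL-4 and 0 untreated, which is at least 84.4-fold higher when 3 counts stand in for the 0. With Retnla at this bound, set on the FPKM + 1 scale, the list median was also 2.62. Il4i1, a secreted amino acid oxidase, was at 25 FPKM with IL-4, against 0.74 FPKM untreated. Its log2 ratio was 3.90, against 5.95 for Arg1 on the same scale. Chil3, the chitinase-like protein Ym1, was at 7.8 FPKM with IL-4, against 1.08 FPKM untreated, a log2 ratio of 2.08. Several of these markers recur in lists below, so the shares of those lists are not separate results. Mrc1, Clec7a, Clec10a and Mgl2 recur among the pattern recognition receptors, and Irf4, Egr2, Batf3, Klf4 and Myc among the transcription factors. Flt1 recurs among the cytokine receptors, Retnla and Chil3 among the secreted factors, and Arg1 and Il4i1 among the amino acid genes.

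Not every textbook marker was expressed. Ccl17, a chemokine for T cells, was at 0 in both libraries. Ccl24, a chemokine for eosinophils, was at 0.96 FPKM with IL-4, against 0.04 FPKM untreated, from 25 expected counts with IL-4 and 1 untreated. Ccl22, another T cell chemokine, was at 0.43 FPKM with IL-4, against 0.26 FPKM untreated, and the scavenger receptor Cd163 at 2.19 FPKM with IL-4, against 2.03 FPKM untreated. Other markers were much higher with IL-4 and yet under the limit of 5 FPKM that the comparison needs. Cdh1, the adhesion molecule E-cadherin, was at 4.64 FPKM with IL-4, against 0.06 FPKM untreated, and Pdcd1lg2, the checkpoint ligand PD-L2, at 2.79 FPKM with IL-4, against 0.03 FPKM untreated. Rnase2a, a secreted ribonuclease of the eosinophil type, was at 3.07 FPKM with IL-4 and at 0 untreated. Of the remaining compared markers, Tgm2, the cross-linking transglutaminase, was at 254 FPKM with IL-4, against 191 FPKM untreated. Fn1, which codes for fibronectin, was at 81.7 FPKM with IL-4, against 88.8 FPKM untreated, while F13a1, a coagulation transglutaminase, was lower, at 3.25 FPKM with IL-4, against 5.53 FPKM untreated.

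The receptor and its direct signalling chain stood at nearly the same level in both libraries. Il4ra, the IL-4 receptor alpha chain, was at 26.3 FPKM with IL-4, against 26.2 FPKM untreated, a log2 ratio of 0.01 with a counting interval of the count ratio from -0.07 to 0.08. Il2rg, the common gamma chain, was at 72.6 FPKM with IL-4, against 73.0 FPKM untreated. The kinases that start the signal were Jak1, at 51.5 FPKM with IL-4, against 50.5 FPKM untreated, and Jak3, at 9.77 FPKM with IL-4, against 10.3 FPKM untreated. Stat6 was at 88.3 FPKM with IL-4, against 93.7 FPKM untreated, a log2 ratio of -0.08. Il13ra1, the partner chain of the type II receptor, was low, at 1.66 FPKM with IL-4, against 3.46 FPKM untreated, so that the common gamma chain was the far more abundant partner per length of transcript. Of 33 pathway genes, 30 were compared, 2 were at least 2-fold higher (6.67%, background 1.26%) and 0 lower, and the list median was -0.05. The higher pair was Dok2, an adaptor that docks on activated tyrosine kinases and restrains Ras signalling, at 59.0 FPKM with IL-4, against 23.9 FPKM untreated, and Jak2, a Janus kinase, at 18.3 FPKM with IL-4, against 8.42 FPKM untreated. Irs2, an adaptor of the IL-4 receptor that leads to PI3-kinase, was at 9.2 FPKM with IL-4, against 7.49 FPKM untreated, and Ptpn6, a phosphatase that restrains cytokine receptors, at 109.5 FPKM with IL-4, against 120.2 FPKM untreated.

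Among 24 compared feedback inhibitors of cytokine signalling, 1 was at least 2-fold higher (4.17%, background 1.26%) and 0 lower. This was Socs1, which blocks Janus kinases, with 526 expected counts with IL-4 and 31 untreated and a log2 ratio of 3.30. Cish, a related inhibitor that is a STAT5 target, was at 3.66 FPKM with IL-4, against 0.22 FPKM untreated, and Socs2 at 4.54 FPKM with IL-4, against 1.26 FPKM untreated, both under the 5 FPKM limit. Socs3 was at 2.92 FPKM with IL-4, against 3.51 FPKM untreated. The other compared members of the family, Socs4, Socs5, Socs6 and Socs7, had log2 ratios from -0.32 to 0.49. Cblb, a ubiquitin ligase that restrains receptor signalling, was at 64.7 FPKM with IL-4, against 33.4 FPKM untreated, a log2 ratio of 0.93.

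Of 137 transcription factors compared, 9 were at least 2-fold higher and 0 lower (background 1.26% and 0.377%), while the list median was 0.04. Irf4, an interferon regulatory factor required for alternative activation in mice, was at 7.6 FPKM with IL-4, against 0.31 FPKM untreated, a log2 ratio of 2.71. Egr2, a zinc finger factor, had 2885 expected counts with IL-4 and 400 untreated. Batf3, a basic leucine zipper partner of Jun and of Irf4, was at 7.01 FPKM with IL-4, against 0.34 FPKM untreated, which rests on 99 expected counts with IL-4 and 5 untreated. Irf4 and Batf3 were under 1 FPKM without IL-4, and Egr2 was not.

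The other 6 were already expressed in untreated cells. Nfil3, a basic leucine zipper repressor, was at 33.2 FPKM with IL-4, against 8.28 FPKM untreated, a log2 ratio of 1.88. Tfec, a relative of the lysosomal regulator Tfeb with a motif in its promoter window, was at 14.6 FPKM with IL-4, against 4.54 FPKM untreated. Klf4, a Krüppel-like factor, was at 30.8 FPKM with IL-4, against 10.8 FPKM untreated, and Bhlhe40, a helix-loop-helix repressor, at 42 FPKM with IL-4, against 17.9 FPKM untreated. Etv5, an ETS factor, and Myc, the growth regulator, lay at the edge of 2-fold with log2 ratios of 1.02 and 1.01. Factors that specify the macrophage lineage differed less. Pparg, the lipid-sensing nuclear receptor, was at 53.6 FPKM with IL-4, against 31.9 FPKM untreated, a log2 ratio of 0.73. Cebpb, which drives myeloid differentiation, was at 106 FPKM with IL-4, against 65.6 FPKM untreated. Irf8, needed for the monocyte lineage, was at 75.0 FPKM with IL-4, against 89.6 FPKM untreated. The lowest ratios of the list were those of Fos, a part of AP-1, at 35.7 FPKM with IL-4, against 62.0 FPKM untreated, and of Maf, a factor of mature macrophages, at 44.5 FPKM with IL-4, against 75.2 FPKM untreated. Fosl2, a relative of Fos, differed in the opposite direction, at 30.3 FPKM with IL-4, against 15.7 FPKM untreated. Of 47 chromatin enzymes 0 passed 2-fold in either direction, a count near the background for a list of this size, and the median was -0.07. Kdm6b, a histone H3 lysine demethylase linked to IL-4 genes, was at 2.86 FPKM with IL-4, against 2.18 FPKM untreated.

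Pattern recognition and phagocytic receptors were past 2-fold in both directions, though 61 of the 74 compared were within it. At least 2-fold higher were 7 (9.46%, background 1.26%) and lower 6 (8.11%, background 0.377%), with a median of -0.03. Mrc1, the mannose receptor, had 29415 expected counts with IL-4 and 3189 untreated, a log2 ratio of 3.20. Clec7a, the beta-glucan receptor Dectin-1, was at 173 FPKM with IL-4, against 37.1 FPKM untreated, a log2 ratio of 2.19. The galactose-binding lectins Clec10a, at 15.2 FPKM with IL-4, against 1.58 FPKM untreated, and Mgl2, at 5.92 FPKM with IL-4, against 0.08 FPKM untreated, are closely related neighbours on chromosome 11 and reads can be split between them, so each value is uncertain on its own. Fcgr2b, the inhibitory Fc gamma receptor, was at 205 FPKM with IL-4, against 49.9 FPKM untreated. Fcgr1, an activating Fc gamma receptor, was within 2-fold and lower, at 39.1 FPKM with IL-4, against 72.4 FPKM untreated. Clec4a3, a C-type lectin of the DCIR group, was at 53.8 FPKM with IL-4, against 24.2 FPKM untreated, and Itgax, the CD11c integrin chain, at 20.8 FPKM with IL-4, against 7.23 FPKM untreated.

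The lower group included receptors that start inflammatory signalling. Tlr2, the receptor for bacterial lipopeptides, was at 15.2 FPKM with IL-4, against 39.0 FPKM untreated, a log2 ratio of -1.31. Cd14, the co-receptor for lipopolysaccharide, was at 186 FPKM with IL-4, against 427 FPKM untreated, a log2 ratio of -1.19. Clec4d, a partner of Clec4e, was at 90.8 FPKM with IL-4, against 221 FPKM untreated. Clec4e, the mycobacterial glycolipid receptor Mincle, was at 2.83 FPKM with IL-4, against 7.87 FPKM untreated, and Clec4n, the fungal mannan receptor Dectin-2, at 2.16 FPKM with IL-4, against 5.82 FPKM untreated. Cd93, a lectin-like receptor of myeloid and endothelial cells, was at 48.3 FPKM with IL-4, against 98.0 FPKM untreated. Clec4a3, Clec4n, Clec4d and Clec4e sit in this order on chromosome 6 between 122952515 and 123289871 (GRCm38.p6), so a higher gene and 3 lower genes share 1 cluster of related lectins.

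Among 38 G protein-coupled receptors compared, 3 were at least 2-fold higher (7.89%, background 1.26%) and 2 lower (5.26%, background 0.377%). P2ry1, a receptor for ADP, was at 19.3 FPKM with IL-4, against 4.95 FPKM untreated, a log2 ratio of 1.77. Adora2b, a low-affinity adenosine receptor, was at 5.11 FPKM with IL-4, against 1.47 FPKM untreated, and Ptgir, the prostacyclin receptor, at 5.43 FPKM with IL-4, against 2 FPKM untreated. All 3 bind small mediators released near the cell. Cx3cr1, the fractalkine receptor, was the protein-coding gene lowest in the ratio, with 1428 expected counts with IL-4 and 5991 untreated and a log2 ratio of -1.97. Gpr162, an orphan receptor, was at 4.53 FPKM with IL-4, against 12.6 FPKM untreated. Counting those past 2-fold, 7 receptors reached 1.5-fold on the higher side and 7 on the lower side. Of all compared genes, 3.16% reached 1.5-fold on the higher side and 1.99% on the lower side, again counting those past 2-fold. Between 1.5-fold and 2-fold higher was, among others, P2ry6, the UDP receptor, at 236 FPKM with IL-4, against 127 FPKM untreated. The cannabinoid receptor Cnr2 was in this range too, at 27.6 FPKM with IL-4, against 14.9 FPKM untreated. On the lower side of the same range was, among others, the chemokine receptor Cxcr4, at 145 FPKM with IL-4, against 233 FPKM untreated. Genes named below for a difference of this smaller size, for staying near their level, or from outside the lists were picked after their values were seen.

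Cytokine and growth factor receptors showed 1 gene past 2-fold of 56 compared (1.79% higher, near the background of 1.26%). Flt1, a receptor for VEGF, had 2377 expected counts with IL-4 and 112 untreated, a log2 ratio of 3.39. Csf2rb, the beta chain shared by the receptors for GM-CSF, IL-3 and IL-5, was at 203 FPKM with IL-4, against 111 FPKM untreated. Csf1r, the M-CSF receptor on which these cells grow, was at 1188 FPKM with IL-4, against 1019 FPKM untreated, and Ifngr1, a chain of the IFN-gamma receptor, at 74.7 FPKM with IL-4, against 73.8 FPKM untreated. Of 34 genes of antigen presentation and costimulation, 2 passed 2-fold, both higher (5.88%, background 1.26%). Cd274, the checkpoint ligand PD-L1, was at 21.0 FPKM with IL-4, against 8.96 FPKM untreated, and H2-DMa, a chain of the peptide editor of MHC class II, at 22.3 FPKM with IL-4, against 9.58 FPKM untreated. Cd74, the invariant chain of class II, was at 347 FPKM with IL-4, against 197 FPKM untreated, a log2 ratio of 0.81. In the Ms4a family of tetraspan membrane proteins on chromosome 19, 2 of 6 compared members passed 2-fold, both higher (33.3%, background 1.26%). Ms4a4a was at 85.4 FPKM with IL-4, against 18.7 FPKM untreated, and Ms4a6d at 209 FPKM with IL-4, against 86.9 FPKM untreated.

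**Figure D2:**
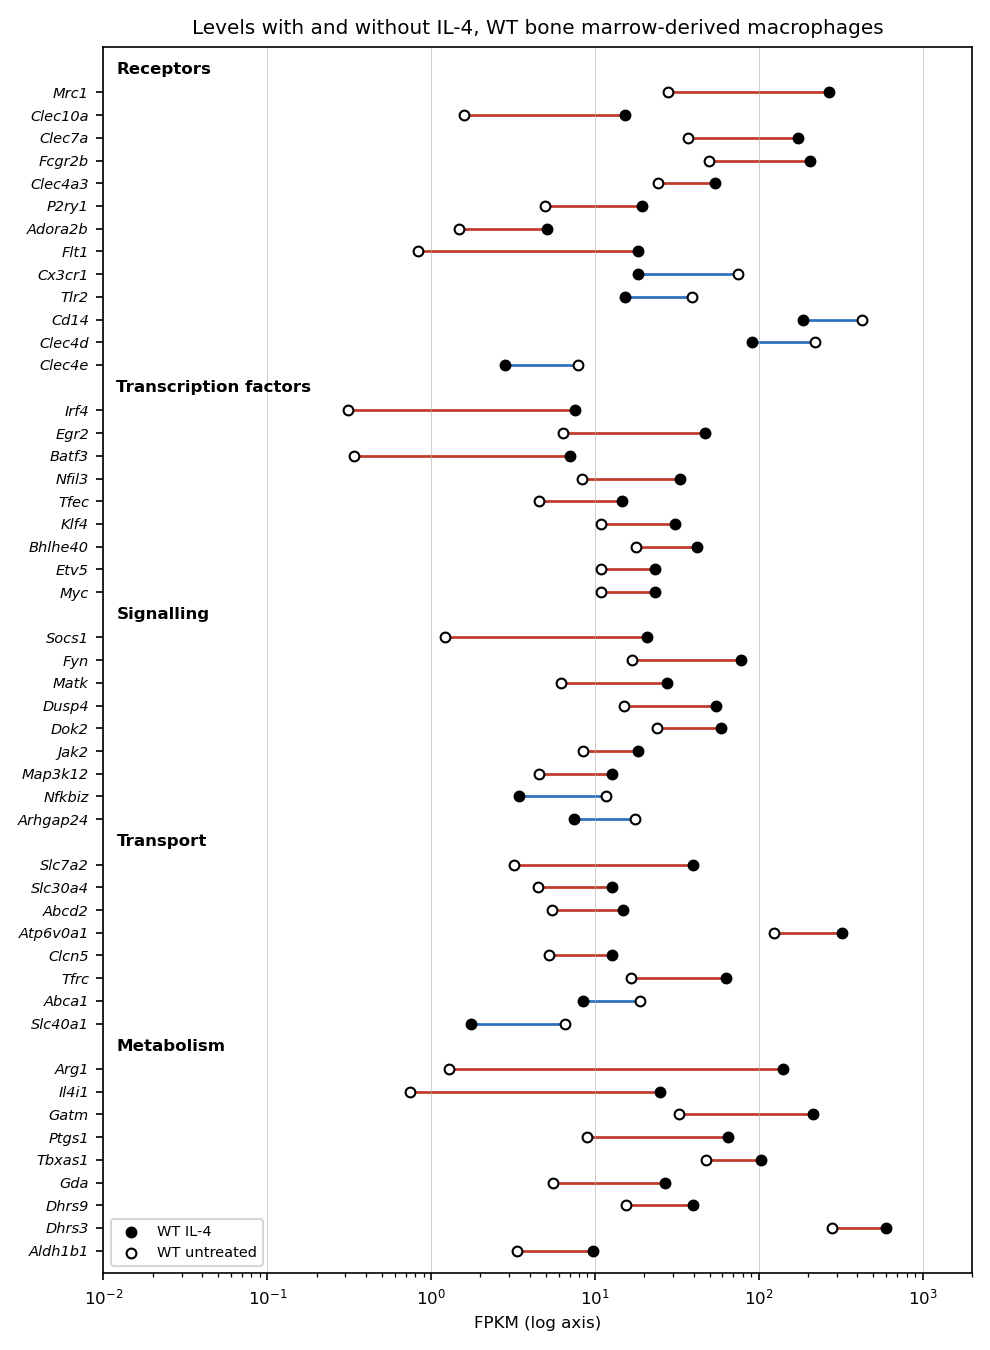
FPKM (log axis) of named genes, grouped by role, in the WT IL-4 library (filled points) and the WT untreated library (open points), joined by a red line where IL-4 is higher and a blue line where it is lower. Il4i1, Irf4, Batf3 and Flt1 lay under 1 FPKM without IL-4, whereas Dhrs3, Atp6v0a1 and Cd14 were above 100 FPKM in both libraries.

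Fyn and Matk are kinases that no list held and were picked after their values were seen. Fyn, a Src-family kinase, was at 77.9 FPKM with IL-4, against 16.8 FPKM untreated, a log2 ratio of 2.15 with a counting interval of the count ratio of 2.13 to 2.30. Matk, a kinase that inhibits Src-family kinases, was at 27.4 FPKM with IL-4, against 6.16 FPKM untreated, so a Src-family kinase and an inhibitor of that family were higher in the same library. Dusp4, a phosphatase that removes phosphate from nuclear MAP kinases, was at 54.4 FPKM with IL-4, against 15.1 FPKM untreated. It was the 1 of 9 compared dual-specificity phosphatases past 2-fold (11.1%, background 1.26%). Map3k12, a stress kinase upstream of JNK, was at 12.7 FPKM with IL-4, against 4.57 FPKM untreated. It was the 1 of 32 compared MAP kinase genes past 2-fold (3.125%, background 1.26%), and the median of that list was -0.10. Among 71 small GTPases and regulators, 2 were at least 2-fold higher (2.82%, background 1.26%) and 0 lower. The higher genes were Rab19, at 6.71 FPKM with IL-4, against 1.43 FPKM untreated, and Ralgds, an exchange factor that links Ras to Ral, at 23.1 FPKM with IL-4, against 9.6 FPKM untreated. Arhgap24, which turns off Rac, was lower, at 7.44 FPKM with IL-4, against 17.6 FPKM untreated. None of the 16 protein tyrosine phosphatases, 8 RGS proteins or 19 G protein and adenylyl cyclase genes compared passed 2-fold. A count of 0 in families this small is near the background of 1.26% higher and 0.377% lower.

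In the NF-kB and inflammatory list of 43 compared genes, 3 were higher (Slc7a2, Ier3 and Ccl2) and 2 lower (Nfkbiz and Clec4e), with a median of -0.08. The shares were 6.98% higher (background 1.26%) and 4.65% lower (background 0.377%). Nfkbiz, the atypical inhibitor that promotes a subset of NF-kB targets, was at 3.42 FPKM with IL-4, against 11.7 FPKM untreated, a log2 ratio of -1.52. Ier3, an immediate early gene that affects cell survival, was at 23.1 FPKM with IL-4, against 8.13 FPKM untreated. Tnf, the inflammatory cytokine, was at 5.62 FPKM with IL-4, against 9.21 FPKM untreated, and Nlrp3, the inflammasome sensor, at 8.43 FPKM with IL-4, against 13.8 FPKM untreated, both between 1.5-fold and 2-fold lower. In the same range on the higher side were, among others, Cd40, with a log2 ratio of 0.90, and Bcl2a1b, with a log2 ratio of 0.74. With those past 2-fold included, 7 genes were at least 1.5-fold higher and 7 lower (background 3.16% and 1.99%).

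Solute carriers past 2-fold made up a share near that of all genes. Of 141 compared, 2 were higher (1.42%, background 1.26%) and 1 lower (0.709%, background 0.377%), with a median of -0.03. Slc7a2, a carrier of arginine and other cationic amino acids, was at 39.4 FPKM with IL-4, against 3.2 FPKM untreated, a log2 ratio of 3.27 from 6327 expected counts with IL-4 and 529 untreated. Slc30a4, a zinc exporter, was at 12.6 FPKM with IL-4, against 4.52 FPKM untreated. The carrier on the lower side was Slc40a1, the iron exporter ferroportin, at 1.76 FPKM with IL-4, against 6.6 FPKM untreated, a log2 ratio of -1.46. Slc6a8, the creatine transporter, was at 87.9 FPKM with IL-4, against 97.3 FPKM untreated, a log2 ratio of -0.15. With those past 2-fold included, 8 carriers were at least 1.5-fold higher and 3 lower (background 3.16% and 1.99%). Between 1.5-fold and 2-fold higher were, among others, Slc2a6, a lysosomal hexose carrier, at 38.6 FPKM with IL-4, against 20.6 FPKM untreated, and Slc15a3, a lysosomal histidine and peptide carrier, at 309 FPKM with IL-4, against 186 FPKM untreated. Slc39a6 and Slc12a7 were also in this range, with log2 ratios of 0.81 and 0.76. In the same range on the lower side were Slc25a37, a mitochondrial iron importer, at 6.79 FPKM with IL-4, against 14.5 FPKM untreated, and Slc16a10, at 25.9 FPKM with IL-4, against 41.7 FPKM untreated.

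Of 22 ABC transporters compared, 1 was at least 2-fold higher (4.55%, background 1.26%) and 1 lower (4.55%, background 0.377%). Abcd2, a peroxisomal carrier of very long-chain fatty acyl groups, was higher, at 14.9 FPKM with IL-4, against 5.46 FPKM untreated. Abca1, which exports cholesterol to apolipoproteins, was lower, at 8.43 FPKM with IL-4, against 18.8 FPKM untreated. Abcg1, which also exports cholesterol, differed in the opposite direction, at 42.0 FPKM with IL-4, against 22.9 FPKM untreated, a log2 ratio of 0.85. Within the proton pump of the lysosome, 2 of 15 compared subunits passed 2-fold, both higher (13.3%, background 1.26%). Atp6v0a1, an a-subunit isoform of its membrane sector, was at 321 FPKM with IL-4, against 124 FPKM untreated, and Atp6v0d2, a d-subunit isoform of the sector found in osteoclasts and macrophages, at 80.1 FPKM with IL-4, against 39.0 FPKM untreated. The alternative isoforms Atp6v0a2, at 14.5 FPKM with IL-4, against 14.7 FPKM untreated, and Atp6v0d1, at 135 FPKM with IL-4, against 127 FPKM untreated, were within 2-fold, and the median of the pump was 0.07. Clcn5, an endosomal exchanger of chloride and protons, was at 12.7 FPKM with IL-4, against 5.23 FPKM untreated. It was the 1 of 45 compared ion channels and pumps past 2-fold (2.22%, near the background of 1.26%).

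Metabolic genes past 2-fold included genes of amino acid, eicosanoid, purine, retinoid, iron and sterol handling. Among 38 genes of amino acid, creatine and polyamine metabolism, 3 were at least 2-fold higher (7.89%, background 1.26%) and 0 lower. They were Arg1, Il4i1 and Gatm. Gatm, the amidinotransferase that starts creatine synthesis from arginine, had 10412 expected counts with IL-4 and 1626 untreated, a log2 ratio of 2.68. Slc7a2, Arg1 and Gatm, which carry or use arginine, were higher in the same library. Other genes of arginine handling were within 2-fold. The carrier Slc7a1 was at 5.78 FPKM with IL-4, against 4.48 FPKM untreated, and Slc7a7 at 7.53 FPKM with IL-4, against 11.7 FPKM untreated. Ass1 was at 10.8 FPKM with IL-4, against 10.7 FPKM untreated, and Arg2 at 2.66 FPKM with IL-4, against 2.44 FPKM untreated. Srm, the spermidine synthase, was at 25.1 FPKM with IL-4, against 19.0 FPKM untreated, and Ckb, a creatine kinase, at 196 FPKM with IL-4, against 231 FPKM untreated. Azin2, an inhibitor of the antizymes that control polyamine synthesis, was outside the list and at 6.95 FPKM with IL-4, against 1.73 FPKM untreated.

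Ptgs1, the constitutive cyclooxygenase COX-1, was at 65.0 FPKM with IL-4, against 8.91 FPKM untreated, a log2 ratio of 2.74, whereas Ptgs2, the inducible COX-2, was at 1.94 FPKM with IL-4, against 1.83 FPKM untreated. Tbxas1, the thromboxane synthase that acts after cyclooxygenase, was at 104 FPKM with IL-4, against 47.6 FPKM untreated. These were the 2 of 37 compared eicosanoid genes past 2-fold (5.41%, background 1.26%). Pla2g15, a lysosomal phospholipase, at 170.2 FPKM with IL-4, against 87.4 FPKM untreated, and Ltc4s, the leukotriene C4 synthase, at 24.9 FPKM with IL-4, against 13.5 FPKM untreated, were between 1.5-fold and 2-fold higher. Hpgd, which degrades prostaglandins, was at 20.3 FPKM with IL-4, against 33.8 FPKM untreated, a log2 ratio of -0.71.

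In nucleotide, vitamin and iron metabolism, 6 of 61 compared genes were higher (9.84%, background 1.26%) and 1 lower (1.64%, background 0.377%). Gda, the guanine deaminase, was at 26.8 FPKM with IL-4, against 5.51 FPKM untreated, a log2 ratio of 2.09. Dhrs3, which reduces retinal to retinol, was at 599 FPKM with IL-4, against 278 FPKM untreated, and Dhrs9, a related retinol dehydrogenase, at 39.7 FPKM with IL-4, against 15.5 FPKM untreated. Aldh1b1, a mitochondrial aldehyde dehydrogenase, was at 9.74 FPKM with IL-4, against 3.35 FPKM untreated. Tfrc, the transferrin receptor that brings iron into the cell, was at 63.2 FPKM with IL-4, against 16.6 FPKM untreated, a log2 ratio of 1.87, and Hfe, an MHC-like partner of the transferrin receptor, was at 85.5 FPKM with IL-4, against 38.4 FPKM untreated.

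None of 53 glycolysis and glucose genes, 50 genes of the TCA cycle and mitochondria, 58 genes of fatty acid oxidation and storage, or 37 redox genes passed 2-fold in either direction, and their medians were -0.04, 0.07, -0.04 and -0.05. With 1.26% of all genes higher and 0.377% lower, a count of 0 in lists of this size is near the background. Cd36, a fatty acid and lipoprotein receptor, was at 115 FPKM with IL-4, against 85.0 FPKM untreated, and Lpl, the lipoprotein lipase, at 494 FPKM with IL-4, against 436 FPKM untreated. Oxct1, which activates ketone bodies for oxidation, was at 91.1 FPKM with IL-4, against 50.5 FPKM untreated, a log2 ratio of 0.84, the highest of the fatty acid list. The lowest of that list was Lpin2, at 15.1 FPKM with IL-4, against 28.8 FPKM untreated, a log2 ratio of -0.89. In the fatty acid list 35 of the 58 ratios were below 0. Pfkp, a phosphofructokinase isoform, was at 33.6 FPKM with IL-4, against 20.7 FPKM untreated, and Pfkfb4, which sets its activator, at 17.3 FPKM with IL-4, against 10.6 FPKM untreated. Pfkfb3 was lower, at 7.33 FPKM with IL-4, against 9.89 FPKM untreated, and 31 of the 53 glycolysis and glucose ratios were below 0. Of 52 sterol and fatty acid synthesis genes the 1 past 2-fold was Abca1 (1.92% lower, background 0.377%).

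Subunits of oxidative phosphorylation showed a small difference in 1 direction, with 75 of 76 ratios above 0 and a median of 0.21 (interval over the genes 0.16 to 0.25), against a median of -0.02 for all genes. All genes of a list come from the same pair of libraries, so this interval does not cover variation between libraries. Examples are Ndufs8, a complex I subunit, at 36.8 FPKM with IL-4, against 24.8 FPKM untreated, and Cox8a, a complex IV subunit, at 250.2 FPKM with IL-4, against 188 FPKM untreated. Cytosolic ribosomal proteins had 77 of 80 ratios above 0 and a median of 0.14, and proteasome subunits 35 of 43 and a median of 0.10. None of these ratios but that of Psmb10, an immunoproteasome subunit at 50.9 FPKM with IL-4, against 32.0 FPKM untreated, passed 1.5-fold. With TMM-scaled counts, where the median of all genes was 0.03, the medians were 0.27 for oxidative phosphorylation, 0.20 for ribosomal proteins and 0.16 for the proteasome. The KO pair had medians of 0.13, 0.05 and 0.12 for the same lists.

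**Figure D3:**
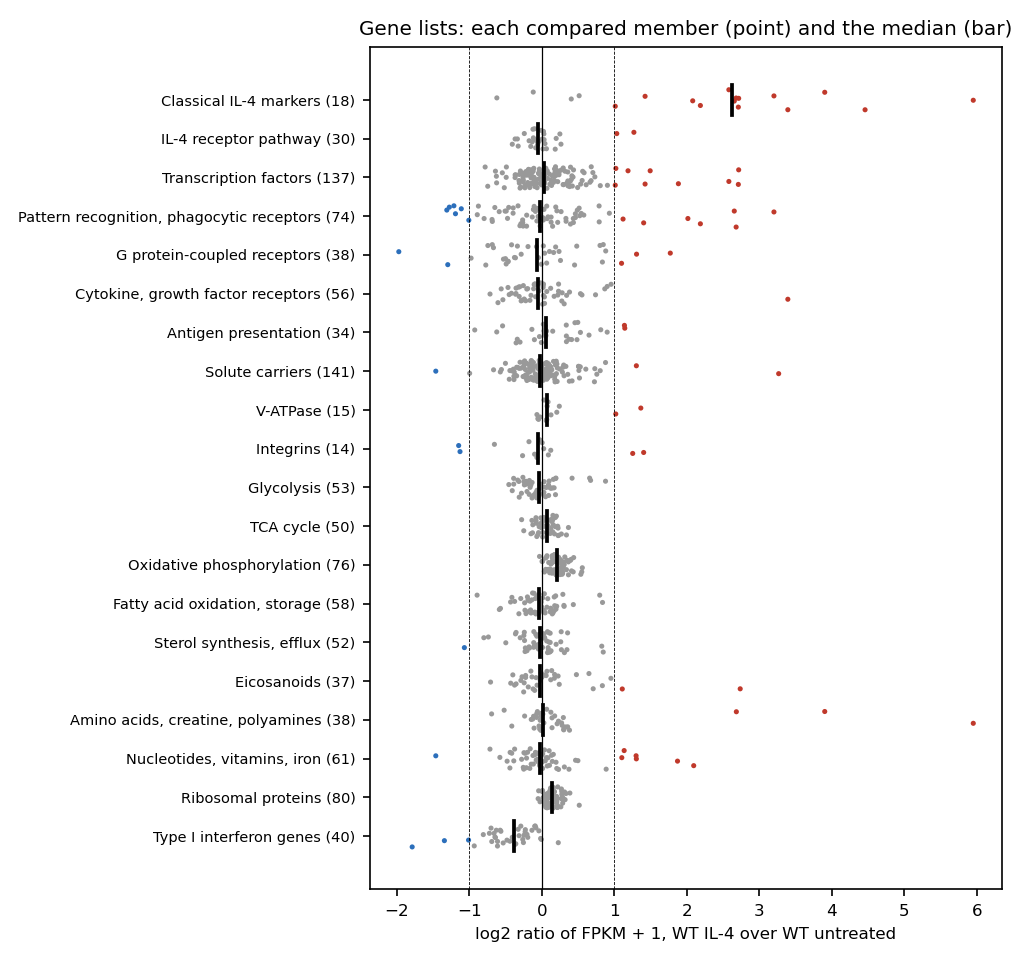
The log2 ratio of FPKM + 1, WT IL-4 over WT untreated, of each compared gene (points) in 20 gene lists, with the list median as a bar, dashed lines at 2-fold and the number of genes in brackets. The classical markers have a median of 2.62, oxidative phosphorylation a narrow group at 0.21 and the type I interferon genes a group at -0.39, while most lists centre near 0 with a few genes past 2-fold.

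Among 53 secreted cytokines and growth factors compared, 6 were at least 2-fold higher (11.3%, background 1.26%) and 0 lower. Apart from Retnla and Chil3 they were the monocyte chemokines Ccl7, at 16.0 FPKM with IL-4, against 3.61 FPKM untreated, and Ccl2, at 21.8 FPKM with IL-4, against 9.67 FPKM untreated, which are neighbours on chromosome 11. The growth factors were Pdgfa, at 57.0 FPKM with IL-4, against 24.9 FPKM untreated, and Igf1, at 150.3 FPKM with IL-4, against 74.4 FPKM untreated. Vegfa, the ligand of Flt1, was at 21.5 FPKM with IL-4, against 37.6 FPKM untreated, a log2 ratio of -0.78. In matrix and adhesion genes, Pecam1, an adhesion molecule, was at 7.25 FPKM with IL-4, against 1.12 FPKM untreated, and Sdc4, a heparan sulfate proteoglycan, at 134 FPKM with IL-4, against 41.2 FPKM untreated. Ang, a ribonuclease that promotes vessel growth, was at 30.4 FPKM with IL-4, against 10.8 FPKM untreated, and its log2 ratio is uncertain because it overlaps Rnase4, at 109 FPKM with IL-4, against 55.8 FPKM untreated. Of 14 integrin genes compared, 2 were at least 2-fold higher (14.3%, background 1.26%) and 2 lower (14.3%, background 0.377%). Itgax and Itgb3, the latter at 10.5 FPKM with IL-4, against 3.81 FPKM untreated, were higher. Itga4, at 7.83 FPKM with IL-4, against 18.3 FPKM untreated, and Itga6, at 28.4 FPKM with IL-4, against 64.0 FPKM untreated, were lower. Itgb3 codes for the beta 3 chain, a partner of alpha V in binding vitronectin, Itga4 for the alpha chain of VLA-4 and Itga6 for a chain of laminin receptors.

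In the cell cycle list, 1 of 52 compared genes passed 2-fold, Plk3, a stress-responsive polo-like kinase, at 16.9 FPKM with IL-4, against 4.88 FPKM untreated. This is 1.92% of the list (background 1.26%). The list median was -0.12, with 16 ratios above 0 and 36 below. The next highest ratios were those of Ccnd1, the G1 cyclin D1, at 40.9 FPKM with IL-4, against 21.9 FPKM untreated, and of the inhibitor Cdkn1a, at 109.7 FPKM with IL-4, against 74.0 FPKM untreated. Among the lower genes were Mki67, with a log2 ratio of -0.25, and Top2a, with a log2 ratio of -0.30. Pdia4, a disulfide isomerase of the endoplasmic reticulum, was at 96.8 FPKM with IL-4, against 35.6 FPKM untreated. It was the 1 of 37 compared stress chaperone genes past 2-fold (2.70%, background 1.26%). Ddit3, a marker of the unfolded protein response, was at 22.9 FPKM with IL-4, against 20.4 FPKM untreated. The other compared genes of the list were within 2-fold.

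The 43 lists and families held 61 of the 104 higher genes and 17 of the 31 lower ones. Outside them, several of the genes named here were picked after their values were seen. Tarm1, an activating receptor of myeloid cells, was at 9.15 FPKM with IL-4, against 0.1 FPKM untreated, with a log2 count ratio of 6.50 and an interval from 4.63 to 9.56 that is wide because only 2 counts came from the untreated library. B3gnt7, a glycosyltransferase, was at 6.33 FPKM with IL-4, against 0.27 FPKM untreated, and Tbc1d16, a GTPase-activating protein for Rab proteins, at 17.8 FPKM with IL-4, against 2.96 FPKM untreated. Tmem26, a membrane protein with a pair of motifs in its promoter window, was at 7.48 FPKM with IL-4, against 1.1 FPKM untreated. Some of these genes act in membrane traffic. Ap2m1, a subunit of the clathrin adaptor, was at 357 FPKM with IL-4, against 141 FPKM untreated. Smap2, which turns off Arf GTPases, was at 124 FPKM with IL-4, against 37.6 FPKM untreated, and Fchsd2, a membrane-bending protein, at 31.1 FPKM with IL-4, against 7.21 FPKM untreated. Others act in cell death, such as Casp6, an effector caspase, at 41.1 FPKM with IL-4, against 12.6 FPKM untreated, and Bcl2, the survival factor, at 5.19 FPKM with IL-4, against 1.87 FPKM untreated. Prps1, which makes the ribose donor of nucleotide synthesis, was at 12.4 FPKM with IL-4, against 4.56 FPKM untreated. On the lower side, the caveolins Cav1, at 11.2 FPKM with IL-4, against 26.6 FPKM untreated, and Cav2, at 14.4 FPKM with IL-4, against 31.3 FPKM untreated, are neighbours on chromosome 6. Pid1, a regulator of insulin signalling, was at 44.2 FPKM with IL-4, against 95.6 FPKM untreated, and Carmil1, which acts on actin capping, at 2.03 FPKM with IL-4, against 6.01 FPKM untreated. The 7 small RNA genes past 2-fold (Mir22, Mir8104, Mir8114 and Mir3960 higher, Mir130c, Mir6970 and Mir6936 lower) and the pseudogenes Rpl14-ps1 and Gm7367 can share reads with host genes or near-identical copies, so their values are uncertain. Rpl14-ps1 had 0 expected counts with IL-4 and 617 untreated, at least 199.9-fold lower with 3 counts in place of the 0, while its parent gene Rpl14 was at 279 FPKM with IL-4, against 221 FPKM untreated.

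Of 40 compared genes induced by type I interferon, 3 were at least 2-fold lower with IL-4 (7.5%, background 0.377%) and 0 higher. They were Ifit1, Ifit2 and Ifit3, neighbouring genes on chromosome 19 for proteins that act against viral RNA. Ifit3 was at 5.79 FPKM with IL-4, against 22.4 FPKM untreated, with a log2 ratio of -1.79. Ifit2 was at 4.11 FPKM with IL-4, against 12.0 FPKM untreated, and Ifit1 at 4.31 FPKM with IL-4, against 9.69 FPKM untreated. Smaller differences ran through the list, with 39 of 40 ratios below 0 and a median of -0.39 (interval over the genes -0.61 to -0.25), against -0.02 for all genes. Here too the interval does not cover variation between libraries. Isg15, a ubiquitin-like modifier, was at 10.3 FPKM with IL-4, against 17.4 FPKM untreated. Rsad2, the antiviral enzyme viperin, was at 3.61 FPKM with IL-4, against 7.79 FPKM untreated, and Oasl2, of the oligoadenylate synthetase family, at 36.4 FPKM with IL-4, against 58.0 FPKM untreated. Irf7, a regulator of interferon genes, was at 83.2 FPKM with IL-4, against 83.5 FPKM untreated. In the KO pair the same 40 genes had a median of 0.32, with 38 above 0, and their levels in the WT IL-4 library were below those in the KO IL-4 library for all 40. Between the untreated libraries, the WT level was above the KO level for 11 of 40. Ifit2 was at 14.7 FPKM in KO IL-4 cells and 11.4 FPKM in KO untreated cells, and Isg15 at 31.7 FPKM in KO IL-4 cells and 18.4 FPKM in KO untreated cells. The lower level of these genes in WT cells rests on 1 library, the WT IL-4 one, and the higher level in KO IL-4 cells on 1 library too. What goes with the difference between the pairs was not tested.

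**Figure D4:**
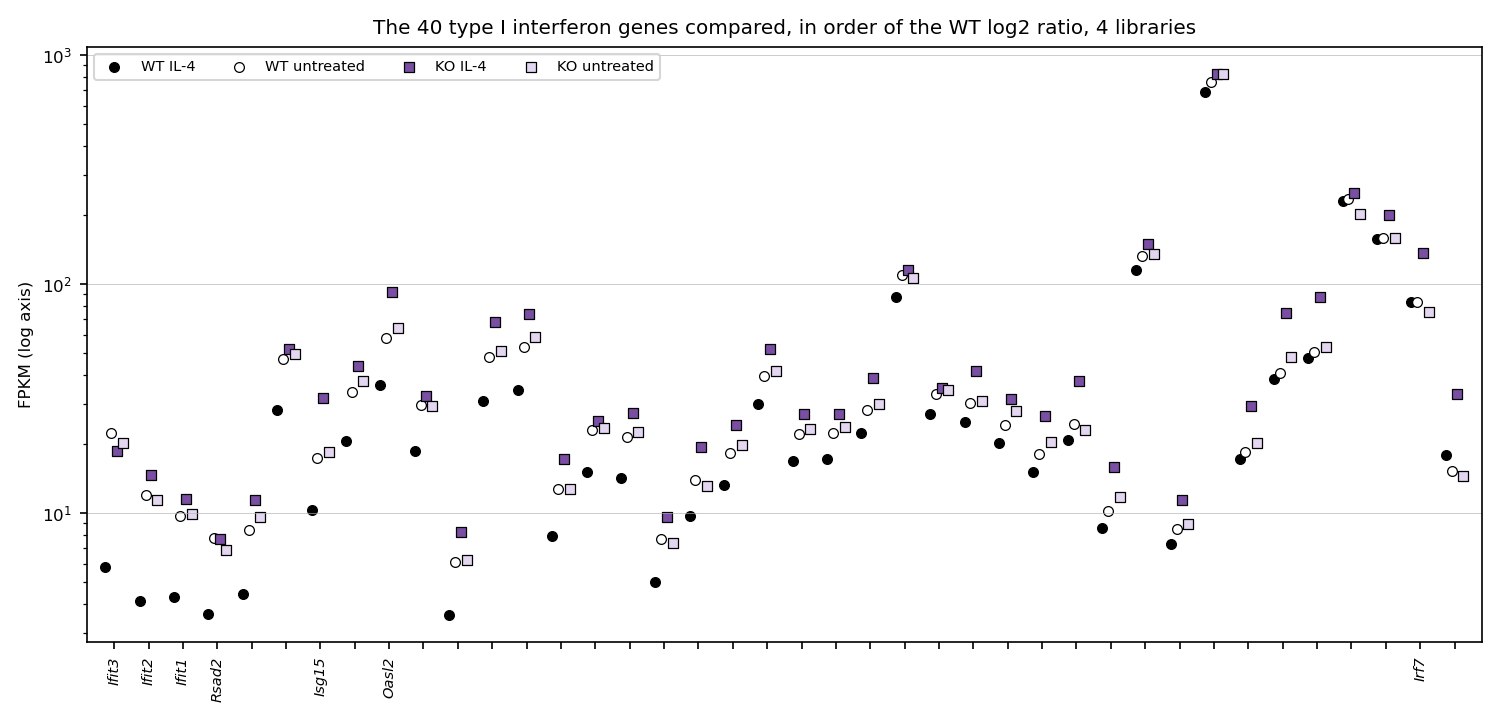
FPKM (log axis) of the 40 compared type I interferon genes in 4 libraries, ordered by the WT log2 ratio, with the genes described above labelled, circles for WT (filled IL-4, open untreated) and squares for KO (dark IL-4, light untreated). In 39 of 40 genes the WT IL-4 level lies below the WT untreated level, and in all 40 below the KO IL-4 level.

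The KO pair, made of other libraries and with no shared control, gave 101 genes at least 2-fold higher (1.23% of 8187 compared) and 25 lower (0.305%). Shared with the WT pair were 86 higher genes, which are 82.7% of the WT list and 85.1% of the KO list, and 15 lower genes, which are 48.4% of the WT list and 60% of the KO list. Of the 104 genes higher in the WT pair, 103 were also at least 1.5-fold higher in the KO pair, and their median log2 ratio was 1.42 in WT and 1.37 in KO. Of the 31 lower genes, 24 were at least 1.5-fold lower in KO, and the medians were -1.21 in WT and -0.98 in KO. Side by side, the log2 ratio was 3.39 in WT and 3.55 in KO for Flt1, 3.27 in WT and 3.10 in KO for Slc7a2, and 2.15 in WT and 2.03 in KO for Fyn. Il4i1 had 3.90 in WT and 2.96 in KO, and Batf3 2.58 in WT and 1.83 in KO. Among lower genes it was -1.31 in WT and -1.21 in KO for Tlr2, and -1.46 in WT and -1.55 in KO for Slc40a1. The difference between the pairs was not tested, since each group is 1 library.

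**Figure D5:**
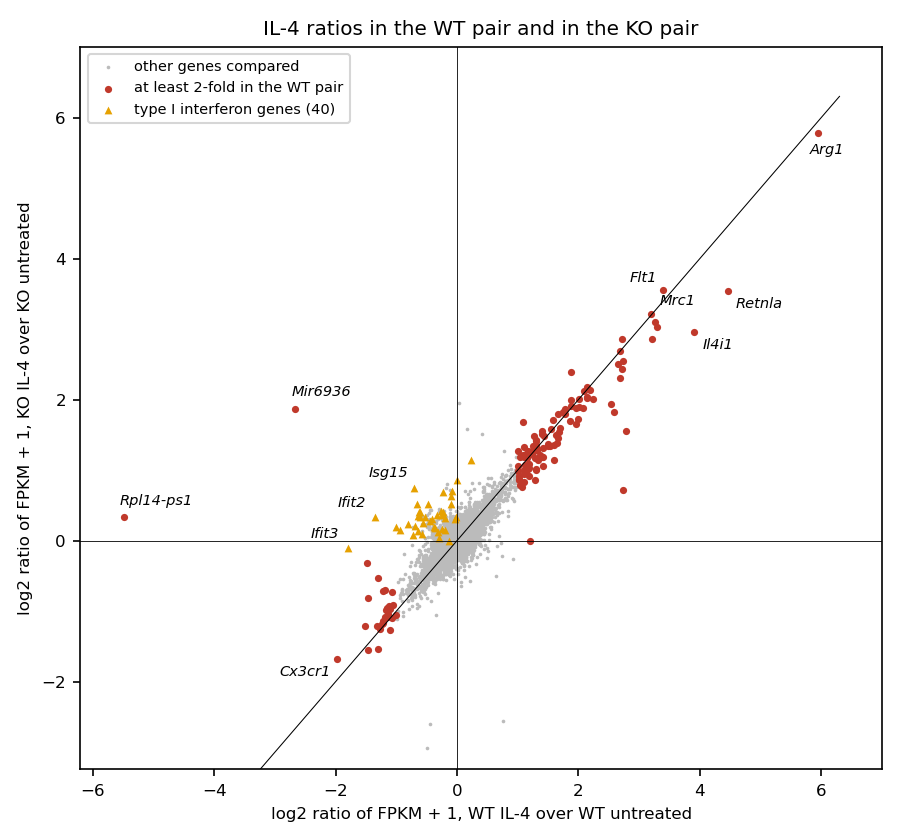
The log2 ratio of FPKM + 1, IL-4 over untreated, in the KO pair (vertical) against the WT pair (horizontal), with the line of equality. Genes past 2-fold in the WT pair (red) lie near the line apart from a few such as Rpl14-ps1 and Mir6936, and the type I interferon genes (yellow triangles) lie above it, with medians of -0.39 in the WT pair and 0.32 in the KO pair.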

How the data were processed

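RNA-seq tables of 4 bone marrow-derived macrophage libraries were used, 1 a group. Bowtie2 2.2.5, RSEM (version not given in the sources used here) and the mm10 build are named in the submitters' processing notes. Per the file headers, the deposited tables hold for each gene an expected count and FPKM (fragment density by transcript length and library total), and the authors' FPKM values carry no scaling between libraries. A gene that a table does not list was set to 0. Some genes are not reported here. Symbols came from RefSeq (GRCm38.p6, the assembly mm10 is built on) for 17374 of 17416 gene IDs and from the tables for 42.

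Genes with at least 5 FPKM in either WT library were compared by log2 of (FPKM + 1), IL-4 over untreated; the pseudocount of 1 understates differences of low genes. There is no test. Counting intervals (95%, conditional Clopper-Pearson on rounded expected counts scaled to library totals) cover counting error only, and PCR copies of a fragment count as if independent. The median expected count was 313 with IL-4 and 317 untreated for genes near 5 FPKM, and 49.4 with IL-4 and 54 untreated near 1 FPKM. Intervals of list medians are order-statistic intervals over genes, which are not replicates of a condition, so they do not cover variation between libraries. The comparison was also run on simulated counts with planted differences and counting noise alone, so variation between cultures or libraries was not part of that check.

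The 23 lists and 20 families (3173 symbols, 2 unmatched) were chosen with earlier results of these data known, as was the comparison itself. Named by rule were the 15 highest and 15 lowest ratios, up to 8 members past 2-fold in each list, and anchor genes marked in the lists. Alternatives were pseudocounts of 0.1 and 5, a 1 FPKM limit, no limit, median scaling, TMM-scaled counts (edgeR 4.0.16, R 4.3.3), protein-coding genes alone and a 1.5-fold limit. Scripts ran in Python 3.11.15 (pandas 2.3.3, scipy 1.17.1, numpy 2.4.6, matplotlib 3.10.9).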

Additional observations from a re-analysis of the deposited data

Results flagged for a closer look

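A few results had opposite signs in the WT pair and the KO pair, and the difference between the pairs was not tested, since each group is 1 library. Ifit1 had a log2 ratio of -1.01 in the WT pair and 0.20 in the KO pair, and Ifit2 -1.34 in the WT pair and 0.33 in the KO pair. The median of the type I interferon genes was -0.39 in the WT pair and 0.32 in the KO pair, and that of the Schlafen family, GTPase-like genes partly induced by interferon, -0.52 over 4 genes in the WT pair and 0.12 in the KO pair; 3 of these 4 genes are also on the interferon list, so the medians are not separate results. The pseudogene Rpl14-ps1 had -5.48 in the WT pair and 0.33 in the KO pair, with 48.1 FPKM in KO IL-4 cells and 38 FPKM in KO untreated cells.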

How the results depend on the processing

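No paired analysis was possible because every group holds 1 library and no replicate numbers are given. With a limit of 1 FPKM, 166 genes were at least 2-fold higher and 92 lower; without any limit the counts were the same, since a pseudocount of 1 keeps genes under 1 FPKM from reaching 2-fold. A 1.5-fold limit, chosen after seeing the data, gave 260 higher and 164 lower. A pseudocount of 5 gave 71 higher, all among the 104, but only 9 lower of the 31, and 32 of 82 named genes past 2-fold were then within it, since a larger pseudocount shrinks the ratios of low genes by construction. A pseudocount of 0.1, median scaling, TMM-scaled counts and protein-coding genes alone gave 100 to 120 higher and 26 to 44 lower. Under median scaling 29 of the 31 lower genes remained, and Ifit1 and Cd93 were within 2-fold. With TMM-scaled counts, medians outside the interval over the list's own genes were 0.0878 for stress chaperones, 0.20 for ribosomal proteins, 0.27 for oxidative phosphorylation and 0.16 for the proteasome, and that of cathepsins, cystatins and serpins was 0.022 in place of -0.03; the cause was not tested. No named gene past 2-fold had the opposite sign under the pseudocounts or scalings tried. Depth limits genes near 1 FPKM, and variation between cultures cannot be seen.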
